A study of Homo sapiens with 6 samples.

Results

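The 39 genes described here encode the proteins that copy DNA at the replication fork, supply its deoxynucleotides and pass chromatin on to the new strands. They were chosen by gene symbol from the deposited table, where all 39 have a row among 60612, and all 39 passed the filter on low counts, as did 14990 genes in all. The table holds RNA sequencing counts for 6 libraries of HepG2 cells, a line from a human liver cancer grown in DMEM with 10% fetal bovine serum. In 3 libraries the cells had been infected with sh-circPRKAA1 lentivirus, which carries a short hairpin RNA against circPRKAA1, a circular RNA named after its host gene PRKAA1, and in 3 with sh-ctrl lentivirus, which carries a control hairpin. All 6 samples have the genotype label WT, and the cells are called epithelial in one label and mesenchymal in the growth protocol. The titles name every knockdown sample sh-circPRKAA1, while the shRNA label of 2 of them reads circPRKAA2 KD and circPRKAA3 KD, and the titles were followed. Whether replicate libraries stem from separate cultures is not stated, so the p-values reflect only how far these 6 libraries scatter, which may be technical. No row of the table names a circular RNA, so the knockdown itself was not checked here.

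At a replication fork the CMG helicase, made of the MCM ring, CDC45 and the GINS complex, unwinds the duplex, and RPA covers the exposed single strands. Polymerase alpha with its primase starts each new strand, the RFC complex loads the PCNA ring, and polymerases epsilon and delta extend the leading and the lagging strand. FEN1 and LIG1 join the lagging-strand pieces, UHRF1 brings DNMT1 to newly copied CpG sites to restore methylation, and the CAF-1 complex places histones behind the fork. Most of these genes are transcribed around the entry into S phase, and E2F transcription factors are known to drive many of them. Bulk RNA gives one value per culture, so fewer cells in S phase and less RNA per cell cannot be told apart.

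A larger share of these genes than of all genes holds the searched letters of an E2F motif in a promoter window. To show members with and without these letters, 7 promoters are printed. RefSeq promoter windows (GRCh38.p14, 250 bases before to 50 after each start) were found for 35 of the 39 genes, with 50 windows in all, and GINS4, RPA2, RPA3 and POLD3 were not matched. The whole RefSeq promoter set had 35116 windows over 27305 genes. These are the "all genes" of the motif shares, and they were not limited to the genes tested here. The E2F motif was searched as TTTCCCGC, TTTCGCGC, TTTGCCGC and TTTGGCGC on both strands. At least 1 window of 16 of the 35 genes held it (45.7%), against 3.99% of all genes. In the 200 bases nearest the start it was in the windows of the same number, 16 members (45.7%), against 2.85% of all genes. The sequences run 5′ to 3′ in the direction of transcription, from 150 bases before the start to 20 after it, and capitals mark the E2F letters. UHRF1 had the deepest fall of the 39, and its start here lies 6421 bases inside the gene as the deposited table bounds it. PCNA and TYMS fell, POLE2 was not called, CDC45 and POLD1 fell with none of the searched letters, and RFC1 was not called.
UHRF1 (chr19:4909351-4909520, plus strand): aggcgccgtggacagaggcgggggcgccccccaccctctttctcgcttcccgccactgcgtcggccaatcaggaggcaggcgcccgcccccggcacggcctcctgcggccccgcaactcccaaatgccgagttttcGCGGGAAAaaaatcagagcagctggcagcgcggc
PCNA (chr20:5126603-5126772, minus strand): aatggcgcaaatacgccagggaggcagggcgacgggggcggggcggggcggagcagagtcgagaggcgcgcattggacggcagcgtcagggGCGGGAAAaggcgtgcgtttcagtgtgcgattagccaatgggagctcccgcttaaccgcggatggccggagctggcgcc
TYMS (chr18:657503-657672, plus strand): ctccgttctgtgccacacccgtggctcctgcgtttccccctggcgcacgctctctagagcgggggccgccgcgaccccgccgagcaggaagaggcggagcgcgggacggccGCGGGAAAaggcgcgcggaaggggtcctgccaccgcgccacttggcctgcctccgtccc
POLE2 (chr14:49688195-49688364, minus strand): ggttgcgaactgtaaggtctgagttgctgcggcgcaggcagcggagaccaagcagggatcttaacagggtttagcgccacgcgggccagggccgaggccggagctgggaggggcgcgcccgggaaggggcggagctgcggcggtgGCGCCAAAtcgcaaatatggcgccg
CDC45 (chr22:19479316-19479485, plus strand): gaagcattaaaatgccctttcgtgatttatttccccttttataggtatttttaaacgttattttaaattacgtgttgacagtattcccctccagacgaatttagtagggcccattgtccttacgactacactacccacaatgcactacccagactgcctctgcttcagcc
POLD1 (chr19:50384173-50384342, plus strand): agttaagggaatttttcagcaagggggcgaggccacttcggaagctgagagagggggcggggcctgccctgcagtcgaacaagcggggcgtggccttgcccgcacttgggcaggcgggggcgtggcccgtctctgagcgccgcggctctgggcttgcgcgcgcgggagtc
RFC1 (chr4:39366343-39366512, minus strand): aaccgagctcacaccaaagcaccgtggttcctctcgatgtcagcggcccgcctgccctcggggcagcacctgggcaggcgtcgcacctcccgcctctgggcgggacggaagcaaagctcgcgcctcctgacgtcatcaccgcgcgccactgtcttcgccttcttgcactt

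In UHRF1, PCNA and TYMS the letters read GCGGGAAA, which is TTTCCCGC on the other strand, and start 14, 59 and 39 bases before the first transcribed base. In POLE2 they read GCGCCAAA and begin 5 bases before it. The printed span of CDC45 has a GC content of 41.2%, below the 67.1 to 74.7% of the other 6. Where a gene had several windows, the one nearest its start in the deposited table was printed. At the other starts of CDC45 the same span has 55.9 and 57.1% GC, and those windows hold none of the searched E2F letters either. The span with 57.1% GC does hold TTTGGCGG, which differs from the searched TTTGGCGC in its last letter and was not counted. So the search does not show that CDC45 lacks an E2F site. The form of the motif without its first T was found in 30 of the 35 genes (85.7%) against 15.3% of all genes, and RFC1 holds it at 2 overlapping places 35 and 38 bases after its start, outside the printed span. The CCAAT box, searched as CCAAT, was in 54.3% of the members and 39.7% of all genes. The E box CACGTG was in 14.3% of the members and 8.77% of all genes. The CHR element, searched as TTTGAA, was in 8.57% and 18.2%, and the TATA box TATAAA in 8.57% and 14.0%, members first in each pair. Members with the letters did not have the deeper median fall: the median log2 fold change was -0.77 over the 16 genes with the 8-letter motif and -0.96 over the 19 without it. For the form without its first T the median was -0.84 over the 30 genes with it and -1.49 over the 5 without it. With offsets for GC content and exonic length the gaps were smaller. The medians were then -0.95 with the 8-letter motif and -1.01 without it, and -0.93 and -1.24 for the shorter form. These differences were not tested.

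In the sh-circPRKAA1 libraries 35 of the 39 genes fell, 0 rose and 4 were not called (RFC1, POLA2, POLE2 and WDHD1), by edgeR's quasi-likelihood test with Benjamini-Hochberg adjusted p under 0.05 over all genes tested. All 39 log2 fold changes were below 0, so 0 were higher at an unadjusted p under 0.05 too, and DESeq2 and limma called 0 higher. Of all 14990 genes tested, 68.4% were called, 32.4% as lower and 36.1% as higher. The median log2 fold change was -0.88 over the 39 genes, against 0.05 over all genes tested. A called fall of at least 2-fold was found in 14 of the 39 (35.9%), against 1197 of all genes (7.99%). With library totals it was found in 11 members and 4.75% of all genes, with TPM scaling in 9 members and 3.70% of all genes, and with the GC and length offsets in 20 members and 6.50% of all genes. PCNA was at -0.85 and LIG1 at -0.99 with library totals, and at -0.75 and -0.89 with TPM scaling. The values of the 2 groups of libraries did not overlap in 36 of the 39, with sh-circPRKAA1 lower in each. Over all genes tested the groups did not overlap in 72.1%, with sh-circPRKAA1 lower in 34.1%. Together the 39 genes took 0.165 ± 0.00153% of all counts in sh-circPRKAA1 libraries and 0.275 ± 0.00513% in sh-ctrl libraries (SD, n = 3 each). With library totals in place of TMM scaling the median of all genes moved to 0.25 and that of the members to -0.68, and with TPM scaling to 0.34 and -0.59. Relative to the median of all genes, the members stood at -0.93 under all 3 scalings. This had to be so, because the 3 scalings differ only in library size and shift all genes alike. With quantile normalization the members stood at -0.87 relative to all genes, and with limma on log2(FPKM + 1) at -0.74.

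**Figure D1:**
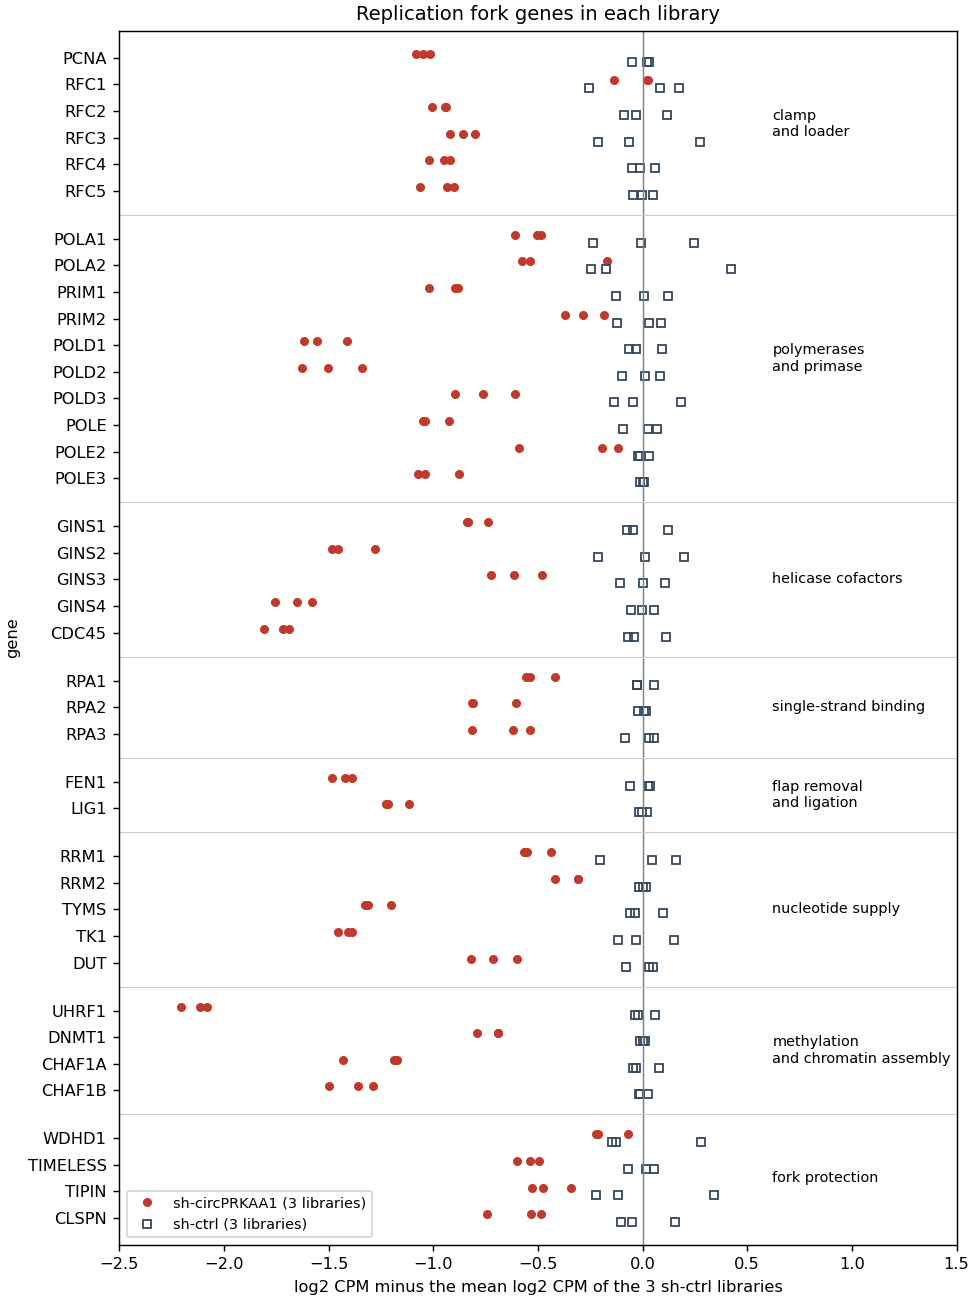
Level of each of the 39 genes in every library, as log2 CPM minus the mean log2 CPM of the 3 sh-ctrl libraries, with filled circles for sh-circPRKAA1 and open squares for sh-ctrl. The 2 groups are apart in 36 genes (72.1% of all genes tested), and RFC1, POLA2 and WDHD1 are the 3 in which they overlap.

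Depth ran from 16348435 to 17549690 counts in sh-circPRKAA1 libraries and from 16284262 to 20282496 in sh-ctrl libraries, and the members' counts from 55 to 7863 per library. At least 1 count was seen for 23788 to 24190 genes in sh-circPRKAA1 libraries and for 21073 to 22254 in sh-ctrl libraries. All 8 hepatocyte markers were detected, and they summed to 27960 to 29020 CPM in sh-circPRKAA1 and 27540 to 28890 CPM in sh-ctrl libraries after TMM scaling. As a share of all counts they took 3.02 to 3.13% in sh-circPRKAA1 and 2.53 to 2.73% in sh-ctrl libraries. Of the 8, HNF4A (-1.49), APOA1 (-1.10), TTR (-0.48) and AFP (-0.33) were called lower, APOB (0.66) was called higher and 3 were not called. Their part in the results on the fork genes was not tested. The 7 fibroblast markers summed to 2.71 to 2.94 CPM in sh-circPRKAA1 and 3.82 to 4.28 CPM in sh-ctrl libraries, nearly all of it PDGFRB, with COL1A1, COL1A2, DCN, THY1 and LUM at or near 0. The 4 endothelial markers summed to 4.76 to 5.49 CPM in sh-circPRKAA1 and 4.82 to 7.45 CPM in sh-ctrl libraries, with KDR at 0. Of the blood markers, LYZ was at 602 to 628 CPM in sh-circPRKAA1 and 768 to 845 CPM in sh-ctrl libraries, with HBB at 0 and PTPRC and CD3E near 0. Apart from PDGFRB and PECAM1, the fibroblast and endothelial markers were at or near 0 in both groups.

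PCNA, the sliding clamp that tethers polymerases to DNA (ENSG00000132646, chr20:5114953-5126626, minus strand, GRCh38), was the most abundant of the 39. It stood at 199, 194 and 190.0 CPM (counts scaled to a common library size, after TMM scaling) in sh-circPRKAA1 libraries, against 408, 410.0 and 388 CPM in sh-ctrl libraries. All 3 knockdown libraries lay far below all 3 controls, and PCNA fell by 1.05 on the log2 scale, or by 51.6% (SE 0.07 in log2 units, edgeR adjusted p = 1.95e-09). The loader that opens this ring has 1 large subunit, RFC1, and 4 small ones. The small subunits fell together: RFC2, RFC3, RFC4 and RFC5 had log2 fold changes of -0.96, -0.88, -0.96 and -0.97. RFC2 was at 26.7, 26.8 and 25.6 CPM in sh-circPRKAA1 libraries and at 55.7, 48.3 and 50.3 CPM in sh-ctrl libraries. RFC4 was at 22.5, 21.0 and 22.1 CPM in sh-circPRKAA1 libraries and at 42.3, 41.2 and 44.4 CPM in sh-ctrl libraries, and for both genes the groups were apart (edgeR adjusted p = 1.01e-07 for RFC2 and 1.08e-07 for RFC4).

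RFC1, the large subunit (ENSG00000035928, chr4:39287456-39366375, minus strand), was not called. It had 74.9, 66.9 and 74.8 CPM in sh-circPRKAA1 libraries and 61.6, 83.1 and 77.9 CPM in sh-ctrl libraries. The knockdown values lay inside the range of the controls, whose first library was the lowest of all 6 (log2 fold change -0.04, SE 0.10, edgeR adjusted p = 0.721). Without sh-ctrl replicate 1 RFC1 was called lower at -0.18 (edgeR adjusted p = 0.0339), and with offsets for GC content and exonic length it was called lower at -0.40 (edgeR adjusted p = 2.05e-06). With library totals, TPM scaling or quantile normalization its value was above 0 and not called (0.16, 0.25 and 0.09). Per exonic length, RFC1 was at 10.7 ± 0.677 FPKM in sh-circPRKAA1 and 11 ± 1.67 FPKM in sh-ctrl libraries. Among the 5 loader genes it was then next to the highest in sh-circPRKAA1 libraries, below RFC2 at 11.9 ± 0.306 FPKM and above RFC4 at 7.30 ± 0.250 FPKM. In sh-ctrl libraries its level was within the spread of that of RFC5 at 10.5 ± 0.340 FPKM, the lowest, and below RFC2 at 23.3 ± 1.73 FPKM (SD, n = 3 each).

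Of the 10 polymerase and primase genes 8 fell and 2 were not called, with a median log2 fold change of -0.85. The deepest falls were in polymerase delta, which copies the lagging strand. POLD1, its catalytic subunit (ENSG00000062822, chr19:50384204-50418018, plus strand), was at 32.0, 33.5 and 36.9 CPM in sh-circPRKAA1 libraries and at 105, 96.2 and 94.1 CPM in sh-ctrl libraries. POLD2, the subunit that binds the catalytic one (ENSG00000106628, chr7:44114681-44124358, minus strand), was at 61.5, 68.9 and 56.5 CPM in sh-circPRKAA1 libraries and at 185, 163 and 176 CPM in sh-ctrl libraries. The groups were far apart for both: POLD1 fell by 65.4% (log2 fold change -1.53, SE 0.08, edgeR adjusted p = 4.40e-10) and POLD2 by 64.3% (log2 fold change -1.49, SE 0.09, edgeR adjusted p = 6.70e-10). POLD3, an accessory subunit that binds PCNA, fell by 0.77 on the log2 scale.

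Polymerase epsilon copies the leading strand, and its subunits differed. POLE, the catalytic one (ENSG00000177084, chr12:132623753-132687376, minus strand), was at 43.6, 44.0 and 47.5 CPM in sh-circPRKAA1 libraries and at 94.7, 84.7 and 91.8 CPM in sh-ctrl libraries. It fell by 50.2% (log2 fold change -1.01, SE 0.08, edgeR adjusted p = 1.99e-08), and POLE3, a histone-fold subunit, fell by 0.99 on the log2 scale. POLE2, the second subunit (ENSG00000100479, chr14:49643555-49688422, minus strand), was at 8.54, 6.50 and 9.01 CPM in sh-circPRKAA1 libraries, against 9.64, 9.70 and 10.0 CPM in sh-ctrl libraries. These values did not overlap, but the gap was small beside the spread and POLE2 was not called (log2 fold change -0.29, SE 0.14, edgeR adjusted p = 0.0787). It was called lower without sh-ctrl replicate 1 (-0.32, edgeR adjusted p = 0.0415) and with the offsets (-0.42, edgeR adjusted p = 0.0059), and its value was 0.01 with TPM scaling. Quantile normalization (-0.51, limma adjusted p = 0.00522) and median of ratios scaling (-0.32, edgeR adjusted p = 0.0478) also called POLE2 lower. Library totals did not (-0.09, edgeR adjusted p = 0.598).

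Polymerase alpha and its primase lay the primers. POLA1, the catalytic subunit of polymerase alpha, fell by 0.55 on the log2 scale, and PRIM1, the small subunit of the primase that makes the RNA primer, fell by 0.94. PRIM2, the large primase subunit (chr6:57314805-57646850, plus strand), was at 19.5, 22.2 and 20.7 CPM in sh-circPRKAA1 libraries and at 23.2, 26.8 and 25.8 CPM in sh-ctrl libraries. It had the smallest called fall of the 39, -0.28 in log2 units (SE 0.10, edgeR adjusted p = 0.0216). PRIM2 was not called without sh-circPRKAA1 replicate 1 (-0.24, edgeR adjusted p = 0.0961) or replicate 3 (-0.28, edgeR adjusted p = 0.0625), nor with library totals (-0.08, edgeR adjusted p = 0.465), and stood at 0.01 with TPM scaling. POLA2, the accessory subunit of polymerase alpha (ENSG00000014138, chr11:65261920-65305589, plus strand), had the fewest counts, 55 to 93 per library. It was at 4.13, 3.20 and 3.12 CPM in sh-circPRKAA1 libraries and at 6.23, 4.12 and 3.92 CPM in sh-ctrl libraries, with 1 knockdown library inside the control range, and it was not called (log2 fold change -0.43, SE 0.21, edgeR adjusted p = 0.0752). POLA2 was called lower without sh-ctrl replicate 2 (-0.57, edgeR adjusted p = 0.0245), sh-ctrl replicate 3 (-0.59, edgeR adjusted p = 0.0299) or sh-circPRKAA1 replicate 1 (-0.58, edgeR adjusted p = 0.0496). Quantile normalization (-0.68, limma adjusted p = 0.00993) and no filter on low counts (-0.47, edgeR adjusted p = 0.0377) also called POLA2 lower. Library totals (-0.23, edgeR adjusted p = 0.34) and TPM scaling (-0.14, edgeR adjusted p = 0.564) did not. Of its exonic bases 2012 are shared with AP000944.2 on the same strand, which had 3 to 5 counts in sh-circPRKAA1 libraries and 9 to 16 in sh-ctrl libraries.

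All 5 helicase cofactors fell, with a median of -1.41. CDC45, which holds the helicase closed around DNA (ENSG00000093009, chr22:19479457-19520612, plus strand), was at 9.57, 10.4 and 10.2 CPM in sh-circPRKAA1 libraries and at 31.9, 32.6 and 36.2 CPM in sh-ctrl libraries. It fell by 70.1%, second among the 39 (log2 fold change -1.74, SE 0.11, edgeR adjusted p = 1.07e-09). The GINS complex has 4 subunits in equal number, yet their genes fell by unlike amounts: GINS4 by 1.66, GINS2 by 1.41, GINS1 by 0.81 and GINS3 by 0.60 on the log2 scale. GINS4 was at 9.57, 10.8 and 10.3 CPM in sh-circPRKAA1 libraries and at 32.3, 31.1 and 33.6 CPM in sh-ctrl libraries (edgeR adjusted p = 1.51e-09). GINS2 was at 14.5, 16.4 and 14.2 CPM in sh-circPRKAA1 libraries and at 45.6, 34.3 and 40.1 CPM in sh-ctrl libraries (edgeR adjusted p = 3.00e-08). For both genes every knockdown library lay below every control. With the GC and length offsets GINS1 and GINS3 were at -1.10 and -0.81.

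The 3 subunits of RPA, the protein that coats single-stranded DNA, fell less, with a median of -0.65. RPA1, the large DNA-binding subunit, was at 70.3, 76.2 and 69.4 CPM in sh-circPRKAA1 libraries and at 106, 100 and 100 CPM in sh-ctrl libraries. RPA2, the middle subunit, was at 25.6, 29.5 and 25.5 CPM in sh-circPRKAA1 libraries and at 45.1, 44.2 and 45.5 CPM in sh-ctrl libraries. RPA3, the small subunit, was at 36.4, 38.5 and 31.8 CPM in sh-circPRKAA1 libraries and at 58.1, 57.1 and 52.8 CPM in sh-ctrl libraries. The groups were apart for all 3, and the log2 fold changes of RPA1, RPA2 and RPA3 were -0.50, -0.74 and -0.65 (highest edgeR adjusted p = 1.91e-05). Per exonic length the 3 genes were at like levels, 13.1, 13.6 and 11 FPKM in sh-circPRKAA1 libraries and 18.6, 22.7 and 17.3 FPKM in sh-ctrl libraries.

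Both genes of lagging-strand joining fell. FEN1, the nuclease that removes the displaced primer flap (ENSG00000168496, chr11:61792911-61797238, plus strand), was at 32.5, 31.7 and 30.4 CPM in sh-circPRKAA1 libraries and at 86.5, 87.2 and 81.4 CPM in sh-ctrl libraries. LIG1, the ligase that seals the remaining nick (ENSG00000105486, chr19:48115445-48170603, minus strand), was at 35.5, 35.3 and 38.1 CPM in sh-circPRKAA1 libraries and at 83.8, 82.3 and 81.5 CPM in sh-ctrl libraries. FEN1 fell by 62.9% (log2 fold change -1.43, SE 0.08, edgeR adjusted p = 4.27e-10) and LIG1 by 56.0% (log2 fold change -1.18, SE 0.08, edgeR adjusted p = 2.42e-09). The exons of FEN1 share 49 bases with FADS2 and 166 with TMEM258, and how the counting assigned reads from shared bases is not given in the sources used here.

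All 5 nucleotide supply genes fell (median -0.71), with the deepest falls in TK1 and TYMS and the smallest in RRM2. TK1, the S-phase thymidine kinase of the salvage route (ENSG00000167900, chr17:78174091-78187233, minus strand), was at 57.4, 60.2 and 59.4 CPM in sh-circPRKAA1 libraries and at 175, 145 and 154 CPM in sh-ctrl libraries. TYMS, the thymidylate synthase that makes dTMP from dUMP (ENSG00000176890, chr18:657653-673578, plus strand), was at 51.3, 50.7 and 55.2 CPM in sh-circPRKAA1 libraries and at 136, 124 and 122 CPM in sh-ctrl libraries. DUT, which makes dUMP from dUTP and keeps uracil out of DNA, was at 44.5, 41.1 and 38.2 CPM in sh-circPRKAA1 libraries and at 68.8, 69.6 and 63.8 CPM in sh-ctrl libraries. In each of the 3 the groups were apart, and TK1 fell by 1.42, TYMS by 1.28 and DUT by 0.71 in log2 units (edgeR adjusted p = 6.64e-10, 1.16e-09 and 1.69e-06). With the offsets TK1, a gene with a GC content of 62.8%, was at -1.05.

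TYMS overlaps a neighbour on each side of its locus. It shares 183 exonic bases with TYMSOS on the other strand, which had 425, 419 and 438 counts in sh-circPRKAA1 libraries and 1129, 1411 and 1351 in sh-ctrl libraries. It shares 967 with ENOSF1, also on the other strand, which had 696, 628 and 725 counts in sh-circPRKAA1 libraries and 259, 437 and 382 in sh-ctrl libraries. Counts of TYMSOS were thus lower, and those of ENOSF1 higher, in every knockdown library than in any control, and whether the counting used strand is not given in the sources used here.

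Ribonucleotide reductase turns ribonucleotides into deoxyribonucleotides. RRM2, its S-phase small subunit (ENSG00000171848, chr2:10120698-10211725, plus strand), was at 128, 138 and 138 CPM in sh-circPRKAA1 libraries and at 169, 173 and 171 CPM in sh-ctrl libraries. The groups were narrow and apart, and RRM2 fell by 0.34 in log2 units (SE 0.07, edgeR adjusted p = 0.000364). That fall was not called with library totals (-0.14, edgeR adjusted p = 0.0533), TPM scaling (-0.05, edgeR adjusted p = 0.534) or quantile normalization, which used limma (-0.11, limma adjusted p = 0.117). RRM1, the large subunit that holds the active site, was at 45.6, 49.9 and 46.0 CPM in sh-circPRKAA1 libraries and at 58.6, 75.5 and 69.6 CPM in sh-ctrl libraries and fell by 0.53 in log2 units (edgeR adjusted p = 0.000119). Of the exonic bases of RRM2, 1077 are shared with AC007240.1, which has no row in the table used here.

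The 4 genes of methylation and chromatin assembly all fell, with a median of -1.32. UHRF1, which reads hemimethylated CpG sites and recruits DNMT1 (ENSG00000276043, chr19:4903080-4962154, plus strand), was at 24.7, 22.7 and 24.2 CPM in sh-circPRKAA1 libraries and at 103, 109 and 102 CPM in sh-ctrl libraries. The lowest control was far above the highest knockdown library, and UHRF1 fell by 77.2% (log2 fold change -2.13, SE 0.08, edgeR adjusted p = 1.32e-11). This was the deepest fall of the 39 and the 58th deepest of the 14990 genes tested. DNMT1, the methyltransferase it recruits (chr19:10133345-10231286, minus strand), was at 112, 120.0 and 120.0 CPM in sh-circPRKAA1 libraries and at 195, 192 and 194 CPM in sh-ctrl libraries. DNMT1 fell by 39.6% (log2 fold change -0.73, SE 0.07, edgeR adjusted p = 1.42e-07).

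CHAF1A and CHAF1B encode the large and middle subunits of CAF-1, the chaperone that deposits new histones H3 and H4 at the fork. CHAF1A was at 32.3, 27.3 and 32.6 CPM in sh-circPRKAA1 libraries and at 77.5, 71.3 and 71.9 CPM in sh-ctrl libraries. CHAF1B was at 19.0, 16.4 and 18.1 CPM in sh-circPRKAA1 libraries and at 47.3, 45.9 and 46.0 CPM in sh-ctrl libraries. Both were lower in every knockdown library than in any control and fell, with log2 fold changes of -1.26 for CHAF1A and -1.38 for CHAF1B (edgeR, adjusted p = 5.64e-09 and 3.32e-09).

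Of the 4 fork protection genes 3 fell and 1 was not called, and their median of -0.51 was the nearest to 0 of the 8 role groups. TIMELESS and TIPIN encode the pair that holds helicase and polymerase together, and CLSPN encodes claspin, the mediator through which ATR activates CHK1. TIMELESS was at 62.0, 63.9 and 59.3 CPM in sh-circPRKAA1 libraries and at 93.4, 91.0 and 85.6 CPM in sh-ctrl libraries, and fell by 0.54 in log2 units (edgeR adjusted p = 9.59e-06). CLSPN was at 17.6, 14.7 and 17.0 CPM in sh-circPRKAA1 libraries and at 22.9, 27.4 and 23.8 CPM in sh-ctrl libraries, and fell by 0.59 (edgeR adjusted p = 0.000198). In both the groups were apart. TIPIN was at 7.01, 7.26 and 7.99 CPM in sh-circPRKAA1 libraries and at 9.31, 12.8 and 8.68 CPM in sh-ctrl libraries and fell by 0.48 (edgeR adjusted p = 0.0126). That fall was not called without sh-ctrl replicate 2 (-0.32, edgeR adjusted p = 0.0569) or sh-circPRKAA1 replicate 1 (-0.44, edgeR adjusted p = 0.0548), nor with library totals (-0.28, edgeR adjusted p = 0.149). WDHD1, also called AND-1, which couples polymerase alpha to the helicase (ENSG00000198554, chr14:54938949-55027105, minus strand), was at 14.8, 13.3 and 13.4 CPM in sh-circPRKAA1 libraries and at 14.0, 18.8 and 14.2 CPM in sh-ctrl libraries. The groups overlapped and WDHD1 was not called (log2 fold change -0.18, SE 0.13, edgeR adjusted p = 0.220). It was called lower without sh-ctrl replicate 1 (-0.28, edgeR adjusted p = 0.0324) and with the offsets (-0.71, edgeR adjusted p = 4.93e-07). Quantile normalization also called WDHD1 lower (-0.32, limma adjusted p = 0.0276), while with library totals and TPM scaling its value was above 0 and not called (0.02 and 0.11).

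**Figure D2:**
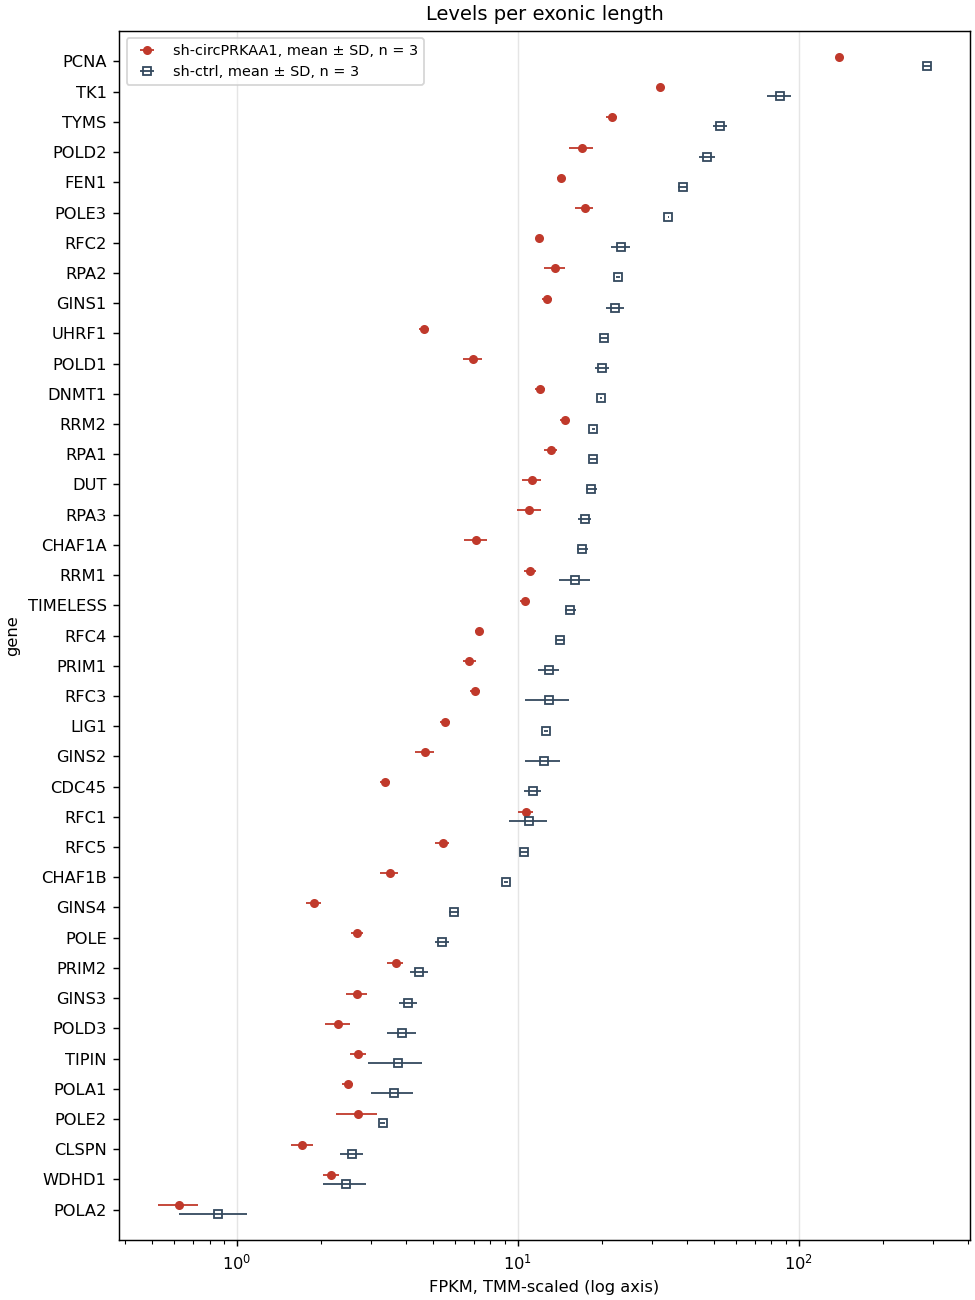
Level of each gene per exonic length in FPKM on a log axis, as mean ± SD of 3 libraries, with filled circles for sh-circPRKAA1 and open squares for sh-ctrl, in the order of the sh-ctrl level. PCNA leads in both groups and POLA2 is lowest in both, while UHRF1 drops to 4.64 FPKM in sh-circPRKAA1 libraries, against 20.3 FPKM in sh-ctrl libraries.

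Per exonic length, the levels spanned from POLA2 at 0.625 ± 0.101 FPKM in sh-circPRKAA1 and 0.854 ± 0.230 FPKM in sh-ctrl libraries to PCNA at 139 ± 3.10 FPKM in sh-circPRKAA1 and 287 ± 8.85 FPKM in sh-ctrl libraries (SD, n = 3 each). TK1 came second, at 32.0 ± 0.798 FPKM in sh-circPRKAA1 and 85.7 ± 8.26 FPKM in sh-ctrl libraries, and TYMS came after it, at 21.6 ± 0.998 FPKM in sh-circPRKAA1 and 52.5 ± 3.05 FPKM in sh-ctrl libraries. Below them the order differed between the groups. POLE3 and POLD2 were within their spread of each other in sh-circPRKAA1 libraries, at 17.3 ± 1.26 and 16.9 ± 1.70 FPKM, while in sh-ctrl libraries POLE3 was at 34.4 ± 0.221 and POLD2 at 47.3 ± 3.06 FPKM. RRM2, at 14.7 ± 0.590 FPKM, was within the spread of FEN1, at 14.3 ± 0.483 FPKM, in sh-circPRKAA1 libraries. In sh-ctrl libraries RRM2 was at 18.6 ± 0.232 and FEN1 at 38.7 ± 1.45 FPKM.

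Ratios of partner genes within a library do not depend on how libraries are scaled to each other. For 20 pairs the log2 ratio of counts was compared between groups by an exact two-sided permutation test over the 6 libraries, where 3 against 3 cannot give a p below 0.1, and the lowest p adjusted over the pairs was 0.222. The groups of libraries were apart in 9 pairs. The share over pairs of other genes was not computed, and the groups were apart in 72.1% of all single genes tested. The 9 pairs therefore cannot be called more than pairs of other genes would give. UHRF1 per DNMT1 was lower in sh-circPRKAA1 libraries, with count ratios of 0.221, 0.190 and 0.202, against 0.525, 0.566 and 0.528 in sh-ctrl libraries (difference of the mean log2 ratios -1.40, exact p = 0.1). RRM2 was compared with RRM2B, the small subunit induced through p53 that serves cells outside S phase. RRM2 per RRM2B was 1.75, 2.10 and 1.87 in sh-circPRKAA1 libraries and 6.16, 4.03 and 4.6 in sh-ctrl libraries (difference -1.35, exact p = 0.1). With the GC and length offsets the difference was -0.96 for RRM2 per RRM2B and -1.3 for UHRF1 per DNMT1.

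Within the loader, RFC1 per RFC4 was 3.33, 3.18 and 3.37 in sh-circPRKAA1 libraries and 1.46, 2.02 and 1.75 in sh-ctrl libraries (difference 0.93, exact p = 0.1). Within the primase, PRIM1 per PRIM2 was 1.01, 0.812 and 0.962 in sh-circPRKAA1 libraries and 1.44, 1.49 and 1.43 in sh-ctrl libraries (difference -0.66, exact p = 0.1). Within polymerase epsilon, POLE per POLE2 was 5.09, 6.74 and 5.26 in sh-circPRKAA1 libraries and 9.79, 8.72 and 9.13 in sh-ctrl libraries (difference -0.70, exact p = 0.1). These 3 ratios were apart between the groups, so that RFC1, PRIM2 and POLE2 made up a larger part of their pair in the knockdown libraries. With the GC and length offsets the 3 differences were 0.61, -0.60 and -0.67. POLD1 per POLD3 differed by -0.77 and by -0.25 with the offsets. The other 3 pairs whose libraries were apart were LIG1 per FEN1 (0.25, and 0.13 with the offsets), RPA1 per RPA2 (0.24 and 0.10) and CHAF1A per CHAF1B (0.12 and 0.33). In the remaining pairs the groups overlapped and the differences ran from -0.26 (GINS4 per GINS2) to 0.18 (RRM2 per RRM1). Nearest to 0 were POLE3 per POLE at 0.01 (exact p = 0.9), POLD1 per POLD2 at -0.04 (exact p = 0.9) and CLSPN per TIMELESS at -0.04 (exact p = 0.7). With the offsets RFC3 per RFC2 turned to -0.51 (0.10 without them), POLA1 per POLA2 was at -0.53 (-0.10 without them) and CLSPN per TIMELESS at -0.37. The sign also turned with the offsets in TIMELESS per TIPIN (0.22, and -0.10 without them), TK1 per TYMS (0.10 and -0.14) and RPA3 per RPA2 (-0.05 and 0.09).

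**Figure D3:**
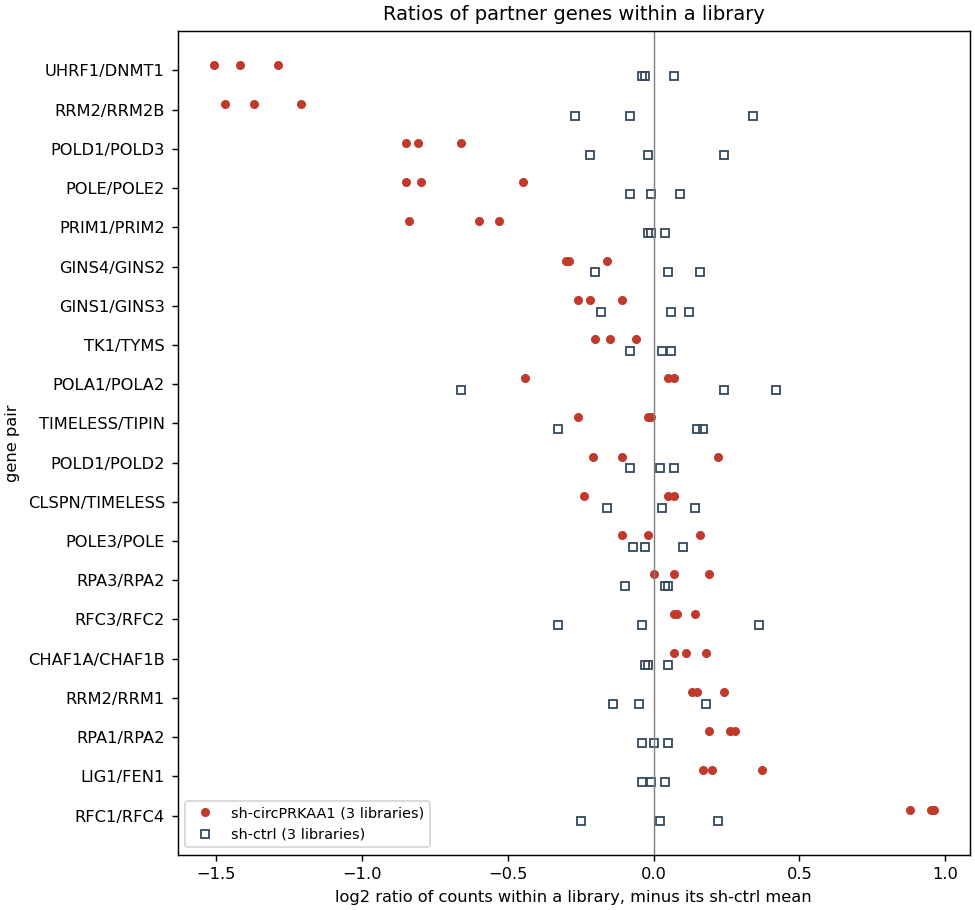
Log2 ratio of the counts of 2 partner genes in each library, minus the mean of the 3 sh-ctrl libraries, for 20 pairs, with filled circles for sh-circPRKAA1 and open squares for sh-ctrl. UHRF1 per DNMT1 and RRM2 per RRM2B lie farthest to the left, at differences of -1.40 and -1.35, and RFC1 per RFC4 farthest to the right, at 0.93.

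The size of a member's change went with the GC content of its transcript, as it did over all genes. Over the 39 genes log2 fold change and transcript GC content (taken from the longest transcript) had a Pearson correlation of -0.60 and a Spearman correlation of -0.61, against a Spearman correlation of -0.37 over 14863 genes tested. These correlations are across genes of the same 6 libraries, which are not independent replicates. The median change was -0.59 over the 15 members under 45% GC and -1.26 over the 7 at 55% or above. Over all genes it was 0.57 in those of at most 40% GC and -0.34 in those above 60%. With offsets per library for GC content and exonic length the correlation over the 39 was -0.27 (Spearman), the medians of these 15 and 7 genes were -0.84 and -1.07, and the median of all 39 was -1.01.

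With these offsets 38 of the 39 were called lower, against 37.1% of all genes tested, and only POLA2 was not, at -0.31 (edgeR adjusted p = 0.152). The 3 other members that the scaling without offsets did not call, RFC1, POLE2 and WDHD1, have GC contents of 41.7, 43.7 and 38.1%. UHRF1 and CDC45 stayed among the deepest falls with the offsets, at -2.0 and -1.60, and GINS4 was at -1.70. POLD1 and POLD2, with GC contents of 65.0 and 59.1%, were at -1.27 and -1.24. What part the GC content of the transcripts has in these differences was not tested beyond this.

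**Figure D4:**
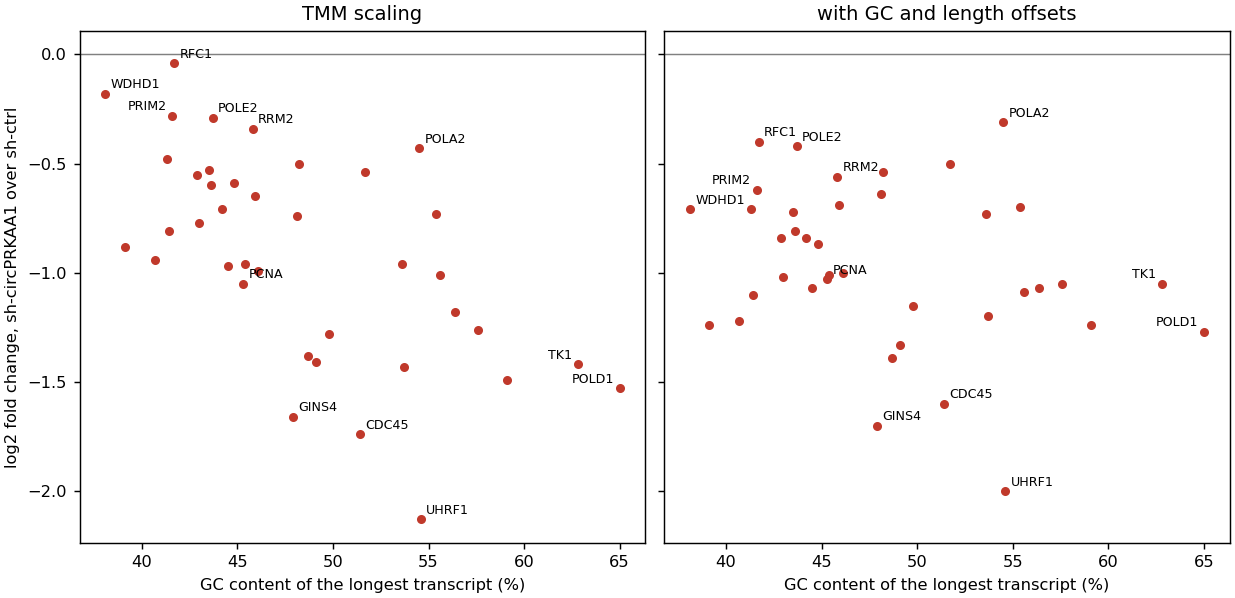
Log2 fold change of each of the 39 genes, sh-circPRKAA1 over sh-ctrl, against the GC content of its longest transcript, with TMM scaling on the left and with offsets for GC content and exonic length on the right. On the left the values fall with GC content (Spearman correlation -0.61), and on the right less so (-0.27), with every gene below 0 in both.

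Genes that work beside the 39 were described from further lists, of which up to 3 members with the smallest p are named. Of all genes tested, 32.4% were called lower and 36.1% higher, and with the offsets 37.1% were called lower. The MCM ring of the helicase, MCM2 to MCM7, fell in all 6 genes (median -1.63), with MCM2 at -2.23, MCM5 at -2.07 and MCM7 at -1.70. MCM2 was at 45, 51.2 and 50 CPM in sh-circPRKAA1 libraries, against 243, 218 and 225 CPM in sh-ctrl libraries. Of 18 other fork and loader genes 10 fell, 2 rose and 6 were not called (median -0.43), and with the offsets 16 were lower and 2 higher. With TPM scaling the median was -0.14. Those with the smallest p were the helicase RECQL4 (-1.13), the RNase H2 subunit RNASEH2A (-1.18) and the loading factor MCM10 (-1.21). The 2 that rose, named after their values were seen, were POLD4, the smallest subunit of polymerase delta (0.48), and TOP2B, the topoisomerase II isoform that non-dividing cells also make (0.73). POLD4 thus stood opposite to POLD1, POLD2 and POLD3, at 13.3, 14.0 and 15.3 CPM in sh-circPRKAA1 libraries and 12.5, 8.97 and 9.41 CPM in sh-ctrl libraries (edgeR adjusted p = 0.00539). With quantile normalization POLD4 was not called (0.30, limma adjusted p = 0.0814), and TOP2B was at 0.29 with the offsets.

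Of 10 other nucleotide genes 6 fell, 3 rose and 1 was not called (median -0.47). The dNTP pyrophosphatase DCTPP1 fell by 1.41 on the log2 scale, and the thymidylate kinase DTYMK, which acts on the product of TYMS and TK1, fell by 1.42. The 3 that rose, named after their values were seen, were RRM2B (0.98), the mitochondrial thymidine kinase TK2 (0.57) and the UMP-CMP kinase CMPK1 (0.85). RRM2B was at 73.5, 65.8 and 73.5 CPM in sh-circPRKAA1 libraries and at 27.3, 42.9 and 37.1 CPM in sh-ctrl libraries. TK1 and TK2 thus moved in opposite directions, as did RRM2 and RRM2B. With the offsets RRM2B was at 0.39 (edgeR adjusted p = 6.27e-06), TK2 at 0.56 and CMPK1 at 0.39, and all 3 were still called higher.

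Of 14 other histone chaperone genes 7 fell, 1 rose and 6 were not called (median -0.33). With the offsets 13 were lower and 1 higher (median -0.69), and with TPM scaling the median was -0.03. TONSL, which reads new histones behind the fork, was at -1.36, the H3.3 chaperone DAXX at -0.98 and ASF1B, which hands histones to CAF-1, at -1.25. The 1 that rose was ATRX, the remodeller that works with DAXX, at 1.5, and at 0.65 with the offsets. Of 6 genes of de novo methylation, demethylation and the UHRF1 paralog, 2 fell, 2 rose and 2 were not called (median -0.22), and with the offsets 4 were lower and 2 higher. The paralog UHRF2 was at 41.7, 36.9 and 36.4 CPM in sh-circPRKAA1 libraries and at 14.5, 20.1 and 19.8 CPM in sh-ctrl libraries. It rose by 1.07 in log2 units (edgeR adjusted p = 8.11e-07), against -2.13 in UHRF1, and was at 0.76 with the offsets. TET2, a methylcytosine dioxygenase, rose by 1.37 and the de novo methyltransferase DNMT3A fell by 0.64.

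Of the repair and bypass polymerases, 4 of 12 fell, 4 rose and 4 were not called (median 0.11). The median turned with the scaling, at -0.15 with the offsets, -0.05 with quantile normalization, 0.31 with library totals and 0.40 with TPM scaling. POLI and REV1, which copy past damaged bases, rose by 1.51 and 1.02 on the log2 scale, and POLL, a gap-filling polymerase, fell by 0.85. The others that rose, named after their values were seen, were POLK (1.70) and REV3L (1.03), also polymerases of damage bypass. With the offsets POLI, POLK, REV1 and REV3L were at 0.83, 0.94, 0.71 and 0.46. Of 15 mitosis genes 10 fell, 2 rose and 3 were not called (median -0.81), and with the offsets 13 were lower and 0 higher. The kinase PLK1 was at -1.59, the anaphase activator CDC20 at -1.61 and CCNB1, the mitotic cyclin, at -1.33. The 2 that rose, named after their values were seen, were the kinetochore motor CENPE (0.54) and the spindle protein NUSAP1 (0.78), and with the offsets CENPE was at -0.23 and neither was called. NUSAP1 had few counts, 18 to 54 per library, and was not called with quantile normalization either (0.40, limma adjusted p = 0.206).

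**Figure D5:**
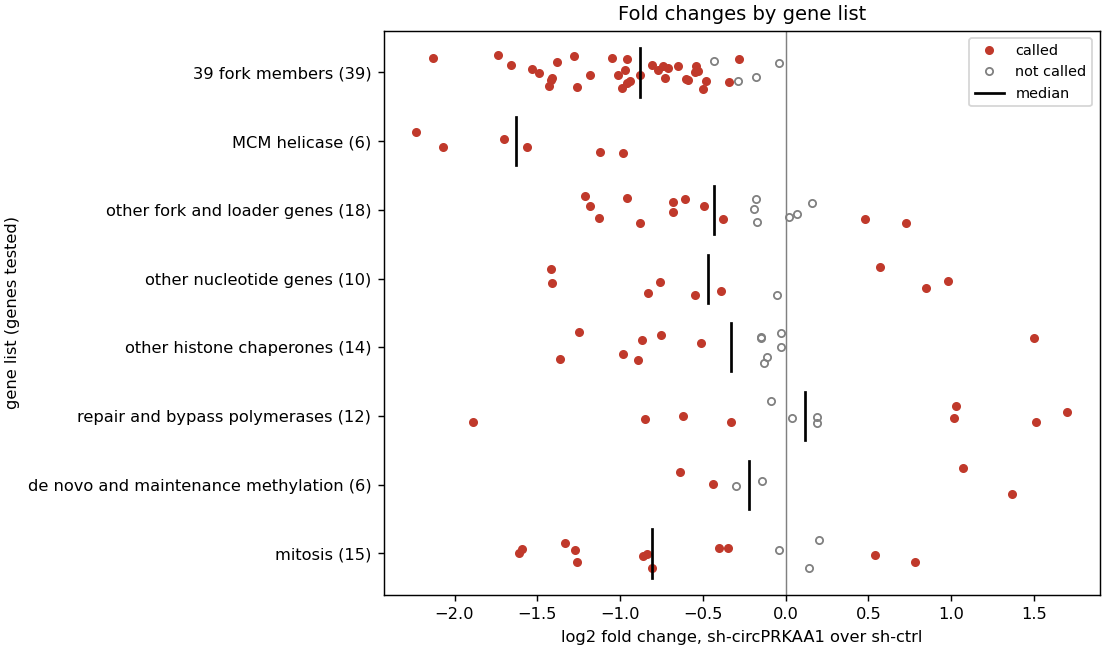
Log2 fold change of every tested gene in the 39 fork genes and 7 further lists, sh-circPRKAA1 over sh-ctrl, with filled circles for genes called by edgeR, open circles for genes not called and a bar at the median of each list. The 39 and the 6 MCM genes lie wholly below 0, with medians of -0.88 and -1.63, while the repair and bypass polymerases spread to both sides, with a median of 0.11 under TMM scaling and -0.15 with GC and length offsets.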

How the data were processed

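For 6 libraries the authors deposited raw counts by Ensembl gene, with exonic lengths and FPKM, per the file headers. The deposited FPKM equalled counts scaled by exonic length and library total within 0.005. FPKM was computed here from TMM-scaled counts, and 1 deposited FPKM column without a replicate number was not used. Per the labels' protocols, libraries were made with the SMARTER mRNA-Seq kit. Builds GRCm38, mm10 and hg18 stand without a role in the submitters' processing notes. Aligner, counter and strand setting: not given in the sources used here. Of the table's identifiers 96.3% are in GENCODE 29 (GRCh38), and 99.92% of those overlap its positions, so coordinates are given as GRCh38.

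Genes kept by filterByExpr (minimum count 10, minimum total 15) in edgeR 4.0.16 (R 4.3.3) were TMM-scaled and tested by the quasi-likelihood test in all 6 libraries, with Benjamini-Hochberg adjusted p-values over 14990 genes and a threshold of 0.05. The scripts were tested on simulated data. Levels are CPM; the ratios of pairs use counts plus 0.5. The count precision is that of 55 or more counts per member. GC content and overlaps came from GENCODE 29, and offsets from mgcv 1.9.3.

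The members, lists and pairs were chosen with earlier results of these data known. Named genes were all 39 members, with library values for up to 3 per role with the smallest p and all not called, the pairs, and 3 per further list. A few further members of a list were named after their values were seen, and some genes of the lists are not reported here. Motifs were first counted over 35116 promoter windows (50 of members) and then per gene. That unit, the printed span and the 7 promoters were chosen after the matches were seen.

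Alternatives were no filter, a mean FPKM of at least 1, median of ratios, library totals, TPM and quantile scaling, DESeq2 1.42.0, limma 3.58.1 on log2 FPKM, protein-coding genes only, GC and length offsets, a replicate block, and each library left out. Same-numbered libraries did not deviate together (correlations -0.15, -0.246 and 0.088). Chi-square per degree of freedom within groups was 3.83 to 15.8, so no 2 libraries agreed within sampling noise.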

Additional observations from a re-analysis of the deposited data

How the results depend on the processing

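Between 29 (TPM scaling) and 38 of the 39 genes were called lower over 19 alternatives, none was called higher in any, and 29 genes kept their call in all of them. Over the same alternatives 17% (no filter) to 37.1% (GC and length offsets) of all genes were called lower, and 19.7% with TPM scaling. Leaving out each library gave 34 to 38 calls and a median between -0.94 and -0.80. The median was -0.91 without a filter, with median of ratios scaling and with DESeq2, -0.85 at a mean FPKM of at least 1, -0.68 with library totals and -0.59 with TPM scaling. It was -0.60 and -0.65 with limma on log2(FPKM + 1) and log2(FPKM + 0.1). Offsets for GC and length gave -1.01, with or without the replicate block. Set against the median of all genes, these were -1.15 (no filter) to -0.74 (limma with a pseudocount of 1), and -0.93 in the results above. The share of all calls that were higher was 52.7%, against 65.7% with library totals, 71.6% with TPM scaling and 65.1 and 65.3% with limma on FPKM.

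Signs turned in 4 genes. RFC1 was at 0.02 (mean FPKM of at least 1), 0.16 (library totals), 0.25 (TPM), 0.09 (quantile), and 0.15 and 0.17 (limma), and between -0.18 and 0.01 with a library left out. WDHD1 was at 0.02, 0.11, 0.02 and 0.03 under library totals, TPM and the limma settings, and PRIM2 and POLE2 were at 0.01 with TPM. Calls also changed in POLA1, POLA2, RRM1, RRM2, TIPIN and CLSPN. RRM1 and CLSPN were lost with TPM scaling only, and POLA1 with TPM scaling and limma. The cause was not tested. With a library left out, 5 ratio differences crossed 0, POLA1 per POLA2 (-0.43 to 0.11), POLE3 per POLE (-0.07 to 0.07), POLD1 per POLD2 (-0.17 to 0.05), RFC3 per RFC2 (-0.06 to 0.28) and CLSPN per TIMELESS (-0.12 to 0.06).

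The replicate numbers did not pair the libraries, and 1 of 3 knockdown libraries correlated best with its own number. With the replicate block 35 were called lower, against 30.9% of all genes, and the members' median was -0.86. The low counts of POLA2 limit its value most.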
